A study of Arabidopsis thaliana with 16 samples.

Results

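The genes described here make up the ROP GTPase switch of the pollen-tube tip in Arabidopsis thaliana. They are 10 genes chosen by locus, of 33323 genes counted in each library: the GTPase ROP1 (AT3G51300), the activators ROPGEF8 (AT3G24620), ROPGEF9 (AT4G13240), ROPGEF11 (AT1G52240) and ROPGEF12 (AT1G79860), the effectors RIC1 (AT2G33460), RIC3 (AT1G04450) and RIC4 (AT5G16490), the inhibitor REN1 (AT4G24580) and the NADPH oxidase RBOHH (AT5G60010). RNA came from wild-type and paps1-1 tubes of ecotype Col-0, grown semi-in vivo, that is, out of a cut pistil. The paps1-1 allele affects PAPS1, a nuclear poly(A) polymerase that adds poly(A) tails to new transcripts, and no other allele or agent is named in the labels. Each of 8 RNA samples, 4 per genotype, was split between a library primed with random hexamers and a library primed with oligo(dT), which gave 4 groups of 4 libraries. Random hexamers prime on any RNA and oligo(dT) on poly(A), and the title of the series ties the ratio of the 2 counts to the length of the poly(A) tail.

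A pollen tube grows at its tip, where the small GTPase ROP1 marks a patch of plasma membrane. ROPGEF proteins load ROP1 with GTP and so switch it on, and GTPase-activating proteins such as REN1 switch it off. RIC proteins bind the active form and act on actin, microtubules and calcium. RBOHH makes reactive oxygen species in the tip membrane, an output linked to the same domain.

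Levels are given as CPM, that is, counts of a gene after each library was scaled to the same total. Gene counts ran from 70006 in wild-type oligo(dT) replicate 3 to 5294715 in paps1-1 random-hexamer replicate 1, so 3 counts, the limit that a count of 0 allows, stood for 0.567 to 42.9 CPM. All 12 pollen-tube markers had counts, summing to between 24607 and 34034 CPM in wild-type and between 11395 and 31391 CPM in paps1-1 random-hexamer libraries. The 8 pistil markers summed to between 30.7 and 112 CPM and between 101 and 426 CPM in the same groups, with the carpel gene CRC at 0 in every library, and the 8 photosynthesis markers to between 120 and 1195 CPM and between 120 and 3565 CPM. PAPS1 (AT1G17980) differed between genotypes in these libraries by a log2 fold change of -0.16 ± 0.65 (SE, edgeR adjusted p = 1.00). In bulk RNA, fewer tubes and less RNA per tube cannot be told apart.

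Of the 10 genes, 9 had counts in at least 7 of the 8 random-hexamer libraries, and 7 in all 8. RIC4, an effector known to promote actin assembly, had 3 counts in all, in paps1-1 random-hexamer replicate 3 (4.22 CPM), and none in the other 15 libraries. RIC1 and RIC3 had counts in every random-hexamer library except wild-type replicate 3. That library held 628358 gene counts and 6043 detected genes, against 16839 detected genes in a paps1-1 library of similar size (replicate 3, 711099 counts). A count of 0 there allowed up to 4.77 CPM, while the other wild-type libraries had RIC1 at 55.3 CPM or more and RIC3 at 43.0 CPM or more. Together the 10 genes took 0.151% to 0.226% of gene counts in wild-type random-hexamer libraries and 0.0571% to 0.167% in paps1-1 ones.

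**Figure D1:**
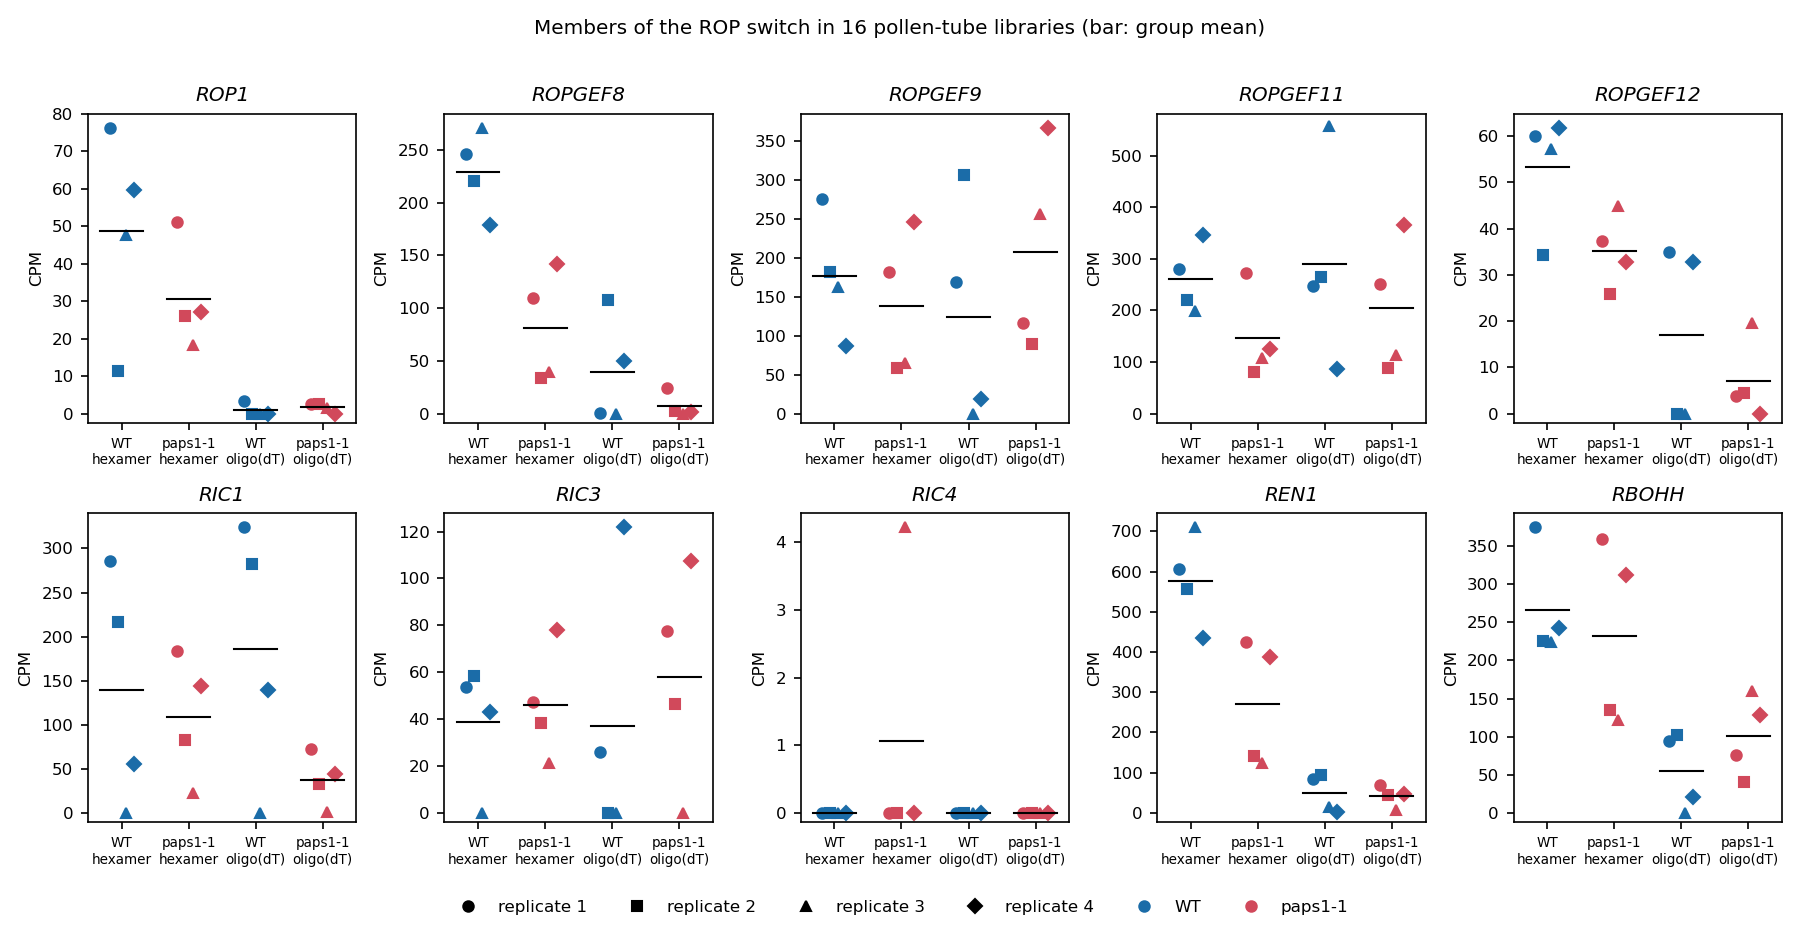
CPM of each of the 10 genes (vertical axes, separate scales) in 16 libraries, by genotype and primer, with symbols for replicate numbers and a bar at the mean of each group. ROPGEF8 and REN1 are the genes whose wild-type random-hexamer values, from 179 and 435 CPM upward, all lie above the paps1-1 values, and RIC4 is at 0 in all but 1 library.

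Levels were compared between genes per kilobase of transcript, with transcript lengths from RefSeq (TAIR10.1). In wild-type random-hexamer libraries the order ran from REN1 at 182 ± 36.0 CPM per kb (SD, n = 4) through ROPGEF11 at 125 ± 31.5, ROPGEF8 at 116 ± 19.8, RIC1 at 98.0 ± 94.2, ROPGEF9 at 89.6 ± 39.3 and RBOHH at 84.8 ± 23.0 to ROP1 at 43.9 ± 24.8, RIC3 at 36.7 ± 25.3 and ROPGEF12 at 27.6 ± 6.61. The inhibitor thus stood first and the GTPase seventh. Among neighbours in this order, only RBOHH against ROP1 and ROPGEF12 against RIC4 differed by more than the spread over libraries (higher in 4 of 4 libraries). The place of ROP1 is uncertain in both genotypes, because 651 of its 1111 transcript bases are shared on the same strand with AT3G51290. If reads from that stretch went uncounted, its level per kb is too low and its gap to RBOHH too wide, which was not tested. In paps1-1 random-hexamer libraries REN1 again had the highest mean, 85.2 ± 49.9 CPM per kb (SD, n = 4), and RIC1, RBOHH, ROPGEF11 and ROPGEF9 followed at 76.1 ± 49.6, 73.8 ± 38.4, 70.1 ± 40.9 and 70.0 ± 46.6. ROPGEF8 was seventh at 41.1 ± 26.9, below RIC3 at 43.7 ± 22.5 and above ROP1 at 27.6 ± 12.8 and ROPGEF12 at 18.2 ± 4.16. There only ROPGEF12 against RIC4 exceeded the spread.

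**Figure D2:**
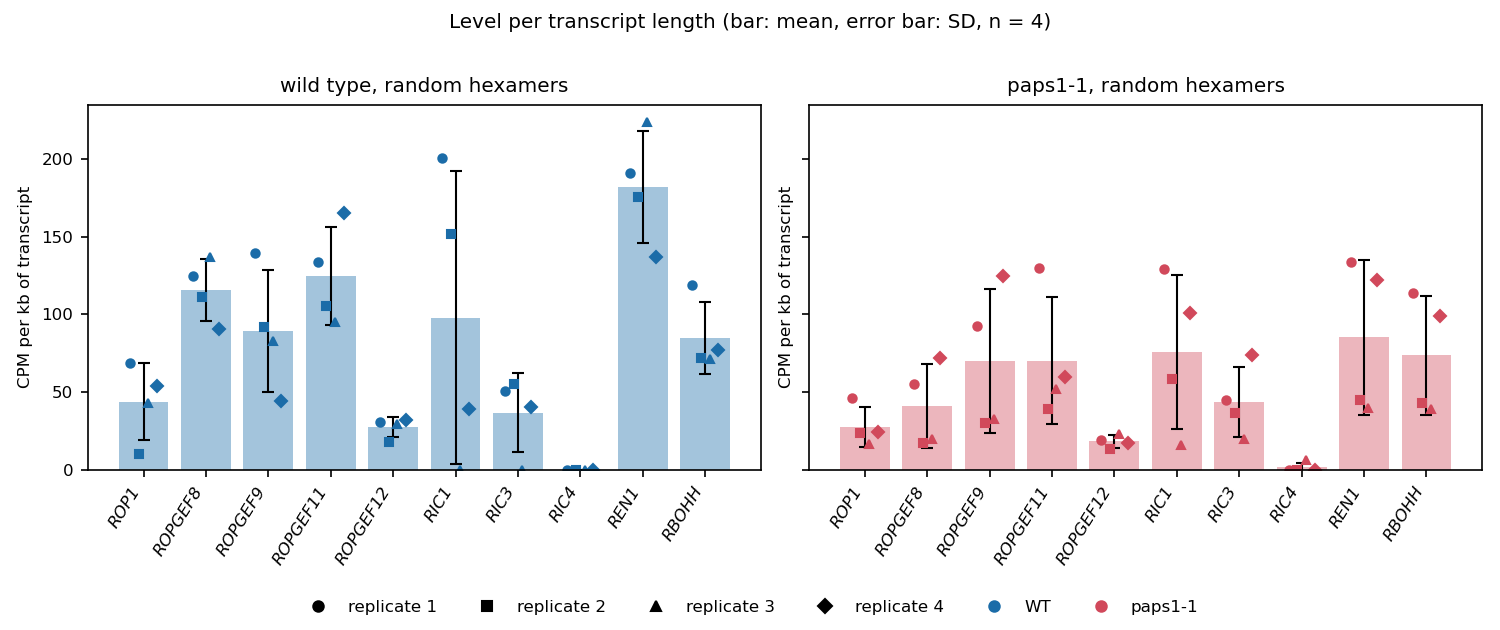
CPM per kb of transcript (vertical axis) for the 10 genes in wild-type and paps1-1 random-hexamer libraries, as mean (bar), SD (error bar, n = 4) and single libraries (symbols). REN1 has the highest mean in both genotypes, 182 and 85.2 CPM per kb, and ROPGEF12 the lowest of the 9 tested genes.

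The first comparison asked which genes differed between genotypes in random-hexamer libraries. The CPM values that stood apart were those of an activator and of the inhibitor: ROPGEF8 and REN1 were lower in all 4 paps1-1 libraries than in any wild-type library. None of the 9 tested genes passed the test across all genes, in which 9 of 12595 genes did (0.0715%). A log2 fold change here is paps1-1 over wild type after TMM scaling, a scaling set by most genes. The median over all genes tested was 0.38, and the median of the 9 was -0.72. After TMM scaling, ROPGEF8 and REN1 overlapped between genotypes. In log2 CPM on that scale, ROPGEF8 stood at 7.40 and 7.35 in paps1-1 replicates 1 and 4, against 7.22 in wild-type replicate 4. REN1 stood at 9.34 and 8.79 in the same paps1-1 libraries, against 8.50 in wild-type replicate 4.

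ROP1 stood at 76.2, 11.4, 47.7 and 59.8 CPM in wild-type replicates 1 to 4, and at 51.2, 26.1, 18.3 and 27.1 CPM in paps1-1. The groups overlapped, with the lowest value of all in wild-type replicate 2. The difference was -0.72 ± 0.89 log2 (SE, edgeR adjusted p = 1.00). In RefSeq, 651 of the 1111 transcript bases of ROP1 (58.6%) are shared on the same strand with a transcript of AT3G51290. The annotation used for counting is not given in the sources used here, so whether reads from that stretch were left uncounted as ambiguous was not tested.

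Among the activators, ROPGEF8 had the clearest separation in CPM. Its wild-type values were 246, 220, 271 and 179 CPM and its paps1-1 values 110, 33.9, 39.4 and 142 CPM. In CPM, though not after TMM scaling, all 4 paps1-1 libraries thus lay below all 4 wild-type libraries, and replicates 2 and 3 were lowest. The means were 229 ± 39.2 and 81.2 ± 53.2 CPM (SD, n = 4), and the log2 fold change was -1.45 ± 0.69 (SE), or -1.83 relative to the median gene. By edgeR's quasi-likelihood test the unadjusted p was 0.0457 and the adjusted p 1.00, so the difference did not pass.

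ROPGEF11, described by RefSeq as a ROPGEF-like protein, stood at 281, 220, 199 and 346 CPM in wild type and at 273, 81.3, 108 and 125 CPM in paps1-1. A single paps1-1 library, replicate 1, lay within the wild-type range. ROPGEF9 overlapped more widely, at 274, 181, 162 and 86.5 CPM against 182, 58.5, 64.7 and 246 CPM. ROPGEF12, an activator known to bind pollen receptor kinases, had the lowest mean of the 4 per kb and stood at 60.0, 34.3, 57.3 and 61.8 CPM against 37.4, 25.8, 45.0 and 32.9 CPM. Its groups overlapped through wild-type replicate 2 alone. The log2 fold changes were -0.76 ± 0.66 for ROPGEF11, -0.44 ± 0.71 for ROPGEF9 and -0.73 ± 0.81 for ROPGEF12 (SE, edgeR adjusted p = 1.00 each). Without paps1-1 replicate 1, ROPGEF11 moved to -1.55, and without any other single library it lay between that value and -0.41.

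Both measurable effectors had a 0 in wild type. RIC1, which acts on microtubules and, in pollen tubes, on actin, stood at 286, 217, 0 and 55.3 CPM in wild type and at 184, 82.8, 22.5 and 144 CPM in paps1-1. RIC3, which promotes calcium entry and actin disassembly, stood at 53.8, 58.6, 0 and 43.0 CPM against 47.2, 38.4, 21.1 and 77.9 CPM. Both overlapped between genotypes, and wild-type replicate 3 had the lowest value of each. Their log2 fold changes were -0.56 ± 0.95 and 0.09 ± 0.97 (SE, edgeR adjusted p = 1.00 each).

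REN1, the GTPase-activating protein without which tube tips swell, stood at 607, 558, 710 and 435 CPM in wild type. In paps1-1 it stood at 425, 142, 125 and 388 CPM. In CPM the groups did not overlap, but their edges were close: the highest paps1-1 value, 425 CPM, was next to the lowest wild-type value, 435 CPM. After TMM scaling they overlapped. REN1 differed by -1.04 ± 0.69 log2 (SE, edgeR adjusted p = 1.00), or -1.41 relative to the median gene. RBOHH stood at 374, 226, 224 and 242 CPM in wild type and at 359, 135, 122 and 311 CPM in paps1-1. It overlapped, with a log2 fold change of -0.24 ± 0.67 (SE, edgeR adjusted p = 1.00).

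In CPM, ROPGEF8 and REN1 are 2 of 9 tested genes without overlap and lower in paps1-1, while 1.52% of all genes tested had that pattern. It needs a count in every wild-type library. Of the 9 genes, 7 had counts in all 8 random-hexamer libraries, as did 4066 of the 12595 genes tested. The shares are therefore not alike, and no excess is read from them. All 9 tested genes had a log2 fold change below the median of all genes, and 8 of them a negative one. In 8 of the 9 genes, with ROPGEF12 as the exception, paps1-1 replicates 2 and 3 were the lowest of the 4 paps1-1 libraries. The same libraries had the lowest geometric means of the 12 pollen-tube markers, 443 and 349 CPM, against 1024 and 874 CPM in paps1-1 replicates 1 and 4 and between 586 and 1145 CPM in wild type. Of the 8 random-hexamer libraries, paps1-1 replicate 2 held the highest summed pistil markers (426 CPM) and paps1-1 replicate 3 the highest photosynthesis markers (3565 CPM). Each was high in 1 list only. Replicate 3 had 101 CPM of pistil markers and replicate 2 had 325 CPM of photosynthesis markers, both within the wild-type range. The part of these markers in the results was not tested.

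Without these libraries, the log2 fold changes ran from -0.70 ± 0.72 (SE) for ROPGEF8 to 0.71 ± 1.12 for RIC3, with 5 of 9 negative, 6 of 9 below the median of all genes, and a median of -0.13 beside 0.24 for all genes. ROPGEF9, RIC1 and RBOHH then turned positive, at 0.31, 0.17 and 0.46, and REN1 moved to -0.31 ± 0.66 (SE). Because paps1-1 replicates 2 and 3 held the lowest paps1-1 values in 8 of the 9 genes, leaving them out raises those genes by construction. The rise and the turned signs therefore say nothing about genotype.

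**Figure D3:**
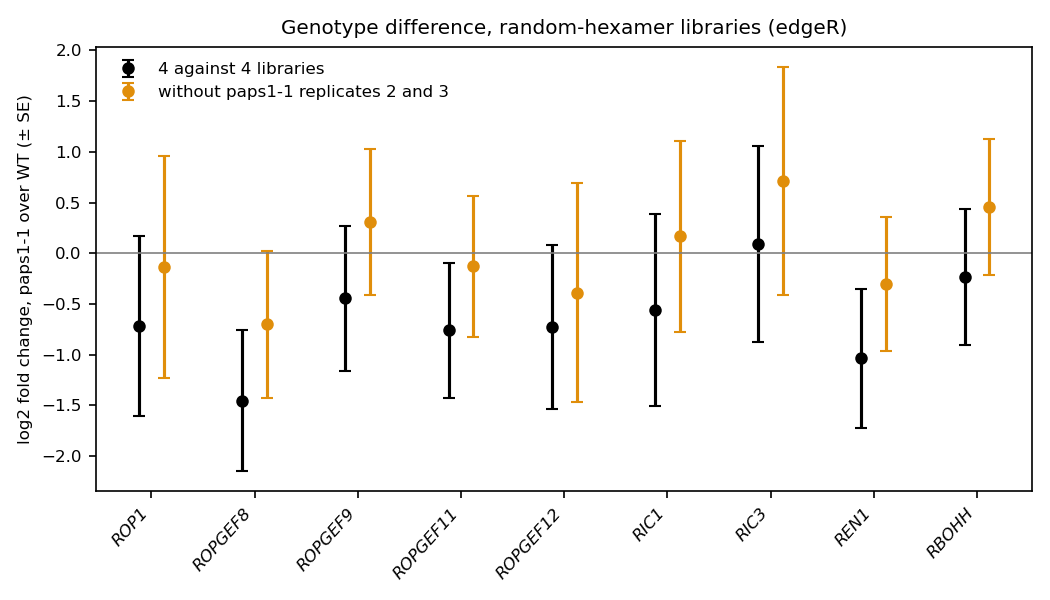
Log2 fold change, paps1-1 over wild type, with SE (vertical axis) for the 9 tested genes in random-hexamer libraries, from all 8 libraries (black) and without paps1-1 replicates 2 and 3 (orange). Without those libraries every value moves up, from -1.45 to -0.70 for ROPGEF8 and from -1.04 to -0.31 for REN1. They held the lowest paps1-1 values in 8 of the 9 genes, so for those genes the rise was fixed in advance.

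The 7 genes with counts in all 8 random-hexamer libraries were also expressed relative to the geometric mean of the 12 pollen-tube markers, a ratio chosen after the values were seen and given without a test. ROPGEF8 stood at 21.5%, 24.7%, 46.1% and 24.9% of that mean in wild type and at 10.7%, 7.66%, 11.3% and 16.2% in paps1-1. REN1 stood at 53.0%, 62.6%, 121% and 60.5% against 41.5%, 32.1%, 35.8% and 44.4%. Both remained without overlap on this scale, with log2 differences of -1.34 and -0.88, and 2.02% of 4066 genes with counts in all 8 libraries were without overlap and lower in the same way.

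The other 5 genes overlapped on this scale. ROPGEF11 differed by -0.55 log2, ROPGEF12 by -0.18, ROPGEF9 by -0.10 and ROP1 by -0.07. RBOHH held between 25.3% and 38.3% of the marker mean in wild type and between 30.6% and 35.7% in paps1-1, a log2 difference of 0.08, the opposite sign to its fold change in CPM. As a log2 ratio it had the narrowest range of the 7.

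**Figure D4:**
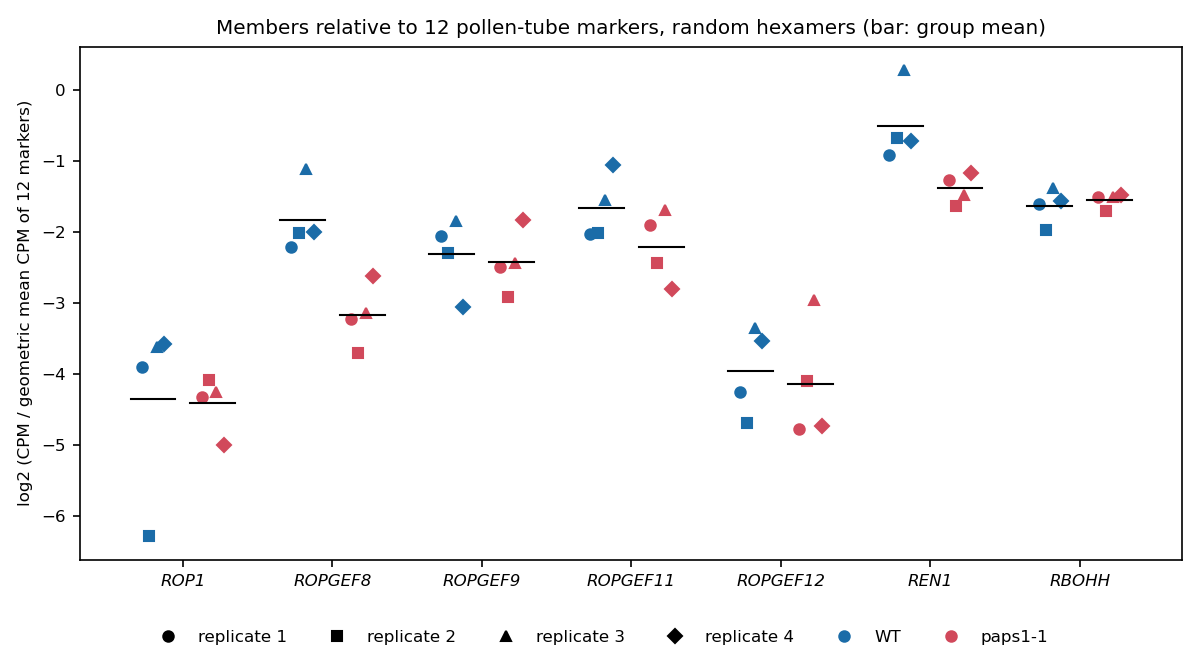
Log2 ratio of a gene's CPM to the geometric mean CPM of 12 pollen-tube markers (vertical axis) in the 8 random-hexamer libraries, for the 7 genes with counts in each, with a bar at the group mean. ROPGEF8 and REN1 do not overlap between genotypes, at differences of -1.34 and -0.88, and the 8 RBOHH values lie close together.

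In the same genotype comparison with oligo(dT) libraries, 6 of the 10 genes passed the filter on low counts. None of them passed the test, which 1 of 5101 genes did (0.0196%), and in none of the 10 were the groups without overlap (3.22% of genes tested). Summed pollen-tube markers ran from 65198 to 130903 CPM in wild type and from 22433 to 75052 CPM in paps1-1, and pistil markers from 0 to 80.4 CPM and from 130 to 554 CPM. Their part in the values of the 10 genes was not tested. RIC1 had the largest difference, from 324, 282, 0 and 140 CPM in wild type to 72.5, 32.6, 1.39 and 44.0 CPM in paps1-1. The groups overlapped through wild-type replicate 3 alone, the library in which 3 counts stand for 42.9 CPM. RIC1 thus differed by -2.12 ± 1.76 log2 (SE, edgeR adjusted p = 1.00). The others were RIC3 at 0.81 ± 2.30, RBOHH at 0.71 ± 2.00, ROPGEF9 at 0.58 ± 1.56, REN1 at -0.04 ± 2.29 and ROPGEF11 at -0.13 ± 1.42, beside 0.43 for the median gene. With standard errors of 1.42 to 2.30, changes of several-fold in either direction lay within the error.

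The second comparison set the oligo(dT) library against the random-hexamer library of the same RNA. REN1 passed this test in wild type and was the only one of the 10 genes to do so, in a comparison where 157 of 14190 genes were called lower with oligo(dT) (1.11%) and 163 in either direction (1.15%). In paps1-1 none of the 9 tested genes passed, and 0.282% of all genes did. In wild-type oligo(dT) libraries REN1 stood at 84.2, 95.0, 14.3 and 2.25 CPM, or 13.9%, 17.0%, 2.01% and 0.518% of its random-hexamer level in the same RNA. In paps1-1 it stood at 69.7, 44.2, 6.96 and 47.5 CPM, or 16.4%, 31.0%, 5.56% and 12.2%. No RNA sample thus kept more than 31.0% of the REN1 level with oligo(dT), and the genotypes overlapped.

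The log2 fold change of REN1, oligo(dT) over random hexamers, was -5.42 ± 1.51 (SE, edgeR adjusted p = 0.0379) in wild type and -3.48 ± 1.35 (edgeR adjusted p = 0.379) in paps1-1. The median gene had -3.92 and -2.53 in the same fits, so REN1 lay 1.51 and 0.95 log2 units below it. The wild-type call did not hold in 9 of 14 alternative settings, among them leaving out wild-type replicate 1 (-5.95, edgeR adjusted p = 0.106), 2 (-5.73, 0.295) or 4 (-3.92, 0.402). Without wild-type replicate 3 it held at -4.69 (edgeR adjusted p = 0.0175), and REN1 then passed in paps1-1 as well (edgeR adjusted p = 0.0387). DESeq2's Wald test gave adjusted p = 0.000735 in wild type and 0.0351 in paps1-1 for REN1.

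ROP1 was almost absent with oligo(dT). It had 3.39 CPM in wild-type replicate 1 and 0 in the other 3, and 2.42, 2.68, 1.39 and 0 CPM in paps1-1, or 10 and 20 counts per genotype against 417 and 418 with random hexamers. A count of 0 allowed up to 3.00, 42.9 and 3.38 CPM in wild-type replicates 2 to 4. The log2 ratio of ROP1 was -7.18 ± 2.93 (SE, edgeR adjusted p = 0.185) in wild type and -4.81 ± 2.53 (edgeR adjusted p = 0.467) in paps1-1.

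ROPGEF8 was lower with oligo(dT) in all 8 RNA samples but over a wide range. In wild type it stood at 0.339, 108, 0 and 49.6 CPM and in paps1-1 at 24.5, 2.01, 0 and 1.76 CPM, which is between 0% and 49.1% of the random-hexamer level. Replicates of the same genotype thus ranged from nearly none to about as much as 49.1%. The log2 fold changes were -5.12 ± 2.14 (SE, edgeR adjusted p = 0.193) in wild type and -5.16 ± 1.92 (edgeR adjusted p = 0.359) in paps1-1. With 1 library left out, the wild-type value of ROPGEF8 ran from -6.77 to -3.23. DESeq2's Wald test called ROPGEF8 in both genotypes (adjusted p = 0.0254 and 0.0143), and ROP1 (0.0247) and RBOHH (0.0301) in wild type.

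ROPGEF12 followed the same direction, at 35.0, 0, 0 and 32.7 CPM in wild type and 3.80, 4.46, 19.5 and 0 CPM in paps1-1. Its log2 fold changes were -3.95 ± 2.72 (SE, edgeR adjusted p = 0.356) and -3.58 ± 2.34 (edgeR adjusted p = 0.547). The median gene had -3.92 in wild type and -2.53 in paps1-1. With ROP1, ROPGEF8 and REN1, ROPGEF12 makes 4 of the 9 tested genes lower with oligo(dT) in 8 of 8 RNA samples. That pattern was held by 6.47% of all genes tested, but it needs a random-hexamer count in all 8 RNA samples. Of the 10 genes 7 had that, and so did 4066 of the 12595 genes tested between genotypes with random hexamers. The 2 shares are therefore not alike, and no excess is read from them. RBOHH was lower in 7 of 8, at 94.7, 102, 0 and 20.3 CPM and at 76.3, 40.8, 160 and 128 CPM, with paps1-1 replicate 3 as the exception. Its log2 fold changes were -3.74 ± 1.52 (SE, edgeR adjusted p = 0.183) and -1.86 ± 1.33 (edgeR adjusted p = 0.578), above the median gene in both genotypes.

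The other activators had no common direction. ROPGEF11, with counts in all 16 libraries, stood at 247, 265, 557 and 86.8 CPM with oligo(dT) in wild type and at 251, 88.1, 114 and 366 CPM in paps1-1. It was lower than with random hexamers in 3 RNA samples and higher in 5. ROPGEF9 stood at 169, 306, 0 and 18.0 CPM and at 116, 89.2, 256 and 366 CPM, lower in 4 RNA samples and higher in 4. Their log2 fold changes in wild type, -1.09 ± 1.29 and -2.40 ± 1.58 (SE, edgeR adjusted p = 0.592 and 0.342), lay above the median gene. Those in paps1-1 were -0.23 ± 1.25 and -0.01 ± 1.38 (edgeR adjusted p = 0.947 and 0.997), and turned to 0.36 and 0.60 with DESeq2 size factors, as did ROPGEF11 in wild type (0.018).

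RIC1 had no common direction over the 8 RNA samples. In wild type the oligo(dT) level was 113%, 130% and 253% of the random-hexamer level in replicates 1, 2 and 4, with both libraries of replicate 3 at 0. In paps1-1 it was 39.4%, 39.3%, 6.19% and 30.5%. Wild-type replicate 3 thus gave no ratio. With TMM scaling the log2 ratio was -0.08 ± 1.59 (SE) in wild type, or 0.61 with DESeq2 size factors, and -2.53 ± 1.53 in paps1-1. The test of the difference between the 2 ratios gave a log2 change of -2.45 ± 2.20 (SE, unadjusted p = 0.265, edgeR adjusted p = 1.00), so it did not pass. RIC3, at 26.1, 0, 0 and 122 CPM against 77.7, 46.4, 0 and 107 CPM with oligo(dT), was lower in 3 RNA samples and higher in 4.

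The last comparison set the oligo(dT) to random-hexamer ratio of paps1-1 against that of wild type, the measure the series takes for tail length. By edgeR's quasi-likelihood test none of the 9 tested genes passed, nor did any of 14190 genes (0%), of which 231 had an unadjusted p under 0.05. No member was among those 231. The log2 differences in ratio, paps1-1 minus wild type, were 2.37 ± 3.48 (SE) for ROP1, -0.04 for ROPGEF8 (unadjusted p = 0.971), 2.38 ± 2.08 for ROPGEF9, 0.86 ± 1.79 for ROPGEF11 and 0.37 ± 3.44 for ROPGEF12. No SE is given for ROPGEF8, because an SE taken from the ratio of a value this near 0 to its test statistic is unstable, and with 1 library left out the value ran from -2.01 to 1.93. They were 1.23 ± 3.55 for RIC3, 1.94 ± 1.94 for REN1 and 1.88 ± 1.96 for RBOHH. The median gene had 0.97, and 7 of the 9 were positive.

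**Figure D5:**
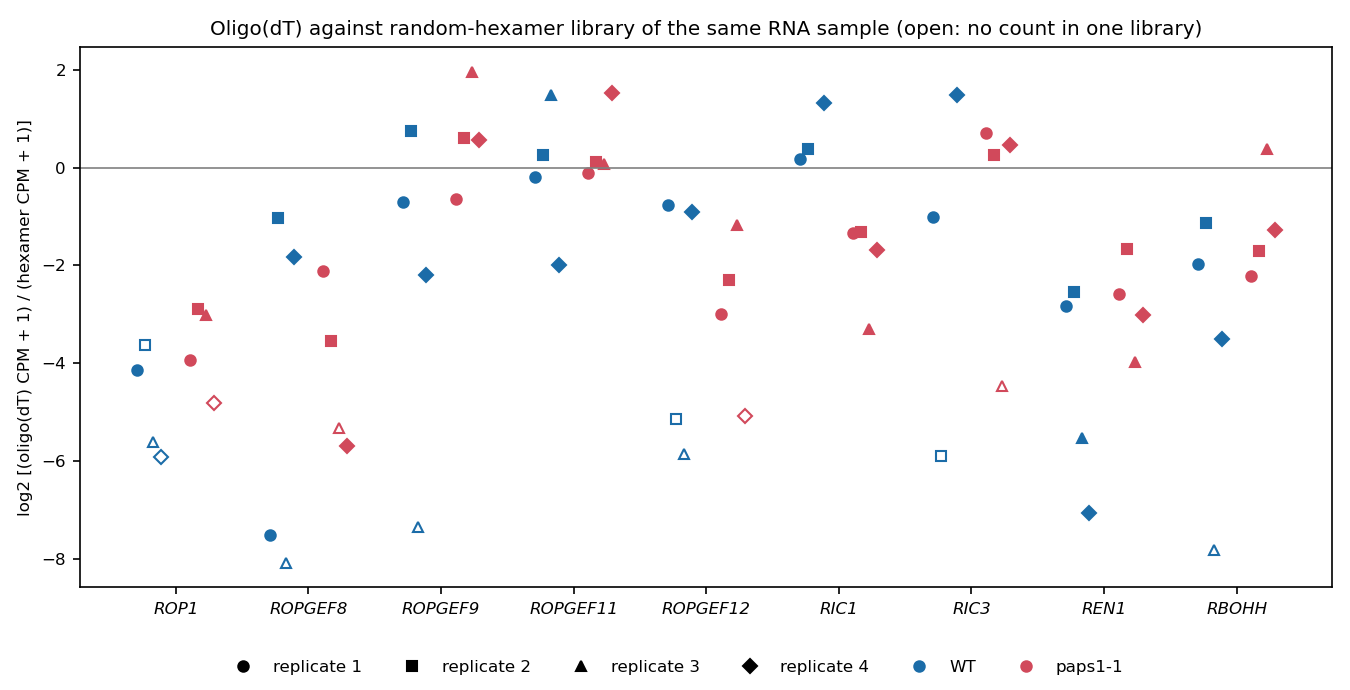
Log2 of (oligo(dT) CPM + 1) over (random-hexamer CPM + 1) within each RNA sample (vertical axis) for 9 genes, with open symbols where a library had no count. ROP1, ROPGEF8, ROPGEF12 and REN1 lie below 0 in all 8 samples, and RIC1 lies above 0 in 3 wild-type samples and below it in 4 paps1-1 samples.

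A further 51 genes of the same pathway were counted, in 6 lists. Of these, 28 were tested in random-hexamer libraries, 13 in oligo(dT) libraries and 30 in the fits of the ratio, and none passed in any comparison. In random-hexamer libraries 17 were above 0 and 11 below, and their median of 0.26 log2 stood beside 0.38 for all genes. Their median ratio of oligo(dT) to random hexamers was -3.50 log2 in wild type and -2.51 in paps1-1.

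The 2 genes of each list with the highest mean CPM show what else of the switch was present. Among the inhibitors, the RhoGAP gene AT5G22400 averaged 253 ± 46.0 CPM (SD, n = 4) in wild-type and 184 ± 94.1 in paps1-1 random-hexamer libraries, and SCN1 (AT3G07880), a GDP-dissociation inhibitor that keeps ROPs off the membrane, 185 ± 76.6 and 200.3 ± 92.2. The activators ROPGEF13 (AT3G16130) and SPK1 (AT4G16340) stood at 211 ± 49.3 and 167 ± 74.0, and at 7.04 ± 12.2 and 58.7 ± 42.5. ROPGEF13 averaged 101 CPM per kb over the 8 libraries, and SPK1 differed between genotypes by 2.52 ± 1.26 log2 (SE, edgeR adjusted p = 1.00). The effector RIC5 (AT3G23380) stood at 171 ± 62.3 and 74.2 ± 41.5 CPM (SD, n = 4), a log2 fold change of -1.28 ± 0.71 (SE, edgeR adjusted p = 1.00).

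The PAK-box gene AT1G03982 averaged 32.1 ± 28.9 and 43.0 ± 34.0 CPM (SD, n = 4) with random hexamers and 278 ± 276 and 188 ± 168 CPM with oligo(dT). The GTPases ROP3 and ROP5 averaged 30.0 and 29.4 CPM over the 8 random-hexamer libraries. The effectors RIP2 and ICR1 averaged 29.2 and 17.1 CPM. The oxidases RBOHD and RBOHJ averaged 98.8 and 46.2 CPM, and RBOHJ is the gene known to act with RBOHH in tube growth. None of these passed the test in any comparison.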

How the data were processed

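The authors deposited, for each of 16 libraries, read counts per gene, and the column for the gene's own strand was taken. STAR and TAIR10 are the tool and genome named per the submitters' processing notes. Their versions, the annotation release and any duplicate removal are not given here. The 4 rows that name no gene held 55.1% to 99.6% of reads and stayed out of library sizes and tests. RefSeq (TAIR10.1) named 32835 of 33323 genes and supplied transcript lengths and the overlap of ROP1 with AT3G51290. Coordinates are not printed.

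The test was edgeR's quasi-likelihood F test (edgeR 4.0.16, R 4.3.3) with TMM scaling. The filterByExpr step asked for a count of at least 10 and a total of at least 15, and p-values were adjusted by Benjamini and Hochberg over all genes tested, at a threshold of 0.05. Each genotype comparison took the 8 libraries of 1 primer. The ratios of primers were fitted jointly on all 16 libraries, with a block for each RNA sample because the labels state that the RNA was split. Alternatives were DESeq2 1.42.0 (its size factors and its Wald test), no filter, both strands summed, the block added or removed, and libraries left out. An SE is the size of a log2 value over the square root of its F statistic. It is unstable for values near 0. Among those printed with an SE are -0.01 for ROPGEF9 in the paps1-1 ratio and -0.04 for REN1 between genotypes with oligo(dT). The fits were also run on simulated counts, drawn independently for each library with no effect of the RNA sample. That setting is simpler than these data, and no result here rests on it.

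No replicates agreed within sampling noise (lowest chi-square over its degrees of freedom 20.5). The labels do not say that replicates came from separate plants, so a p-value reflects the spread of these libraries, which may be technical. Limits from counts of 0 cover counting error only. The 10 genes, the pathway lists and the rule for named genes (all 10, any pathway gene past the threshold, and the 2 of highest mean random-hexamer CPM in each list) were chosen with earlier results of these data known. The marker ratio was added after the values were seen.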

Additional observations from a re-analysis of the deposited data

Results flagged for a closer look

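In 5 of 37 gene and group combinations with 4 libraries, 1 library stood far from the other 3 by Dixon's ratio. That ratio flags about 1 in 20 groups of normally distributed values, but always flags a group with counts in 1 library only. ROP1 and RIC4 below are such groups, so 5 of 37 cannot be set against 1 in 20. ROP1 had 3.39 CPM in wild-type oligo(dT) replicate 1 and 0 in the others. ROPGEF8 had 24.5 CPM in paps1-1 oligo(dT) replicate 1, against at most 2.01 CPM in the others. ROPGEF12 had 34.3 CPM in wild-type random-hexamer replicate 2, below 57.3 CPM or more in the others. RIC4 had 4.22 CPM in paps1-1 random-hexamer replicate 3, from 3 counts. RBOHH had 374 CPM in wild-type random-hexamer replicate 1, above 242 CPM or less in the others.

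Counts on the strand opposite to the gene, which entered only the alternative that sums both strands, were above the limit of 3 counts for 8 of the 10 genes. Over 16 libraries there were 31 for ROP1, 96 for ROPGEF8, 80 for ROPGEF9, 8 for ROPGEF11, 80 for ROPGEF12, 17 for RIC1, 105 for REN1 and 47 for RBOHH. Several came mostly from 1 oligo(dT) library. All 31 of ROP1 lay in wild-type replicate 4, where its own strand had 0, as did 71 of the 80 of ROPGEF12, beside 29 on its own strand. For ROPGEF8, 73 of 96 lay in paps1-1 replicate 4, beside 1 on its own strand, and for ROPGEF9, 58 of 80 in paps1-1 replicate 2, beside 400.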

How the results depend on the processing

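Of 595 values of the 10 genes under the alternatives, 507 kept their direction and side of the threshold, 73 changed sign, 9 lost the call and 6 gained one. The 9 lost calls are all REN1 in wild type: log2 -4.25 with DESeq2 size factors, -5.09 without a filter, -4.11 without the RNA sample block and -5.34 without paps1-1 replicates 2 and 3, and 5 of the 8 single libraries left out (-5.95 to -3.92 over the 8). DESeq2's Wald test also called ROP1 (-5.52), ROPGEF8 (-4.05) and RBOHH (-2.74) in wild type and ROPGEF8 (-4.76) and REN1 (-2.86) in paps1-1. Except for these and REN1, no call of a member changed.

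Counts of calls over all genes moved. Between genotypes with random hexamers (9), they were 47 without a filter, 37 by the Wald test, 11 with DESeq2 size factors, 15 with a replicate block, and 4 to 11 with 1 library left out. With oligo(dT) (1), they were 7 with size factors, 2 without a filter, 51 by the Wald test, 2 without regard to strand, 4 with the replicate block, 0 without paps1-1 replicates 2 and 3, and 0 to 3. For the wild-type ratio (163), they were 105, 87, 1747 and 52 (size factors, no filter, Wald, without paps1-1 replicates 2 and 3), and 32 to 242. For the paps1-1 ratio (40), they were 61 (size factors), 957 (Wald), 16 (no replicate block), 2 (without paps1-1 replicates 2 and 3), and 16 to 215. For the difference of ratios (0), they were 4 (size factors), 33 (Wald) and 0 to 2. The causes were not tested. Size factors moved the median log2 fold change of all genes from 0.38 to 0.53 and from 0.43 to 0.81 between genotypes, and from -3.92 to -3.16 and from -2.53 to -2.08 for the ratios. Same-numbered wild-type and paps1-1 libraries deviated together only in part (r from -0.07 to 0.30). The pair of replicates 1 had the highest r with each primer (0.30 with random hexamers, 0.22 with oligo(dT)). Pairs of unlike number reached 0.19. Whether replicates of the same number were handled together is not stated in the labels and was not tested.

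Signs turned as follows, all of values without a call. Between genotypes with random hexamers, without paps1-1 replicates 2 and 3, ROPGEF9 was 0.31, RIC1 0.17 and RBOHH 0.46; RIC1 was 0.44 with the replicate block, and RBOHH 0.081 relative to the markers. With oligo(dT), ROPGEF11 was 0.66 and REN1 0.59 without those libraries, and REN1 was 0.040 without a filter, 0.11 without regard to strand and 0.36 with the replicate block. For the wild-type ratio, ROPGEF11 was 0.018 with size factors and 0.016 by the Wald test, and RIC1 was 0.61 and 0.89 under the same, 0.24 without a filter, 0.023 without regard to strand and 0.024 without paps1-1 replicates 2 and 3. For the paps1-1 ratio, ROPGEF9 was 0.60 with size factors and by the Wald test, 0.16 without a filter and 0.19 without regard to strand, and ROPGEF11 was 0.36 under the first pair and 0.11 without paps1-1 replicates 2 and 3. For the difference of ratios, ROPGEF8 was 1.68 without regard to strand, 0.050 with no replicate block and 0.49 without paps1-1 replicates 2 and 3. ROPGEF12 was -0.22 with size factors, -0.41 by the Wald test, -0.039 without regard to strand, -1.16 with no replicate block and -1.37 without paps1-1 replicates 2 and 3, and RIC3 was -0.12 by the Wald test and -0.036 without regard to strand.

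With 1 library left out, the lowest and highest log2 values of the results that changed sign were as follows. Between genotypes with random hexamers they were -1.33 and 0.080 for ROP1, -0.85 and 0.26 for ROPGEF9, -1.15 and 0.43 for RIC1, -0.33 and 0.60 for RIC3, and -0.72 and 0.36 for RBOHH. With oligo(dT) they were -0.49 and 0.23 for ROPGEF11 and -0.67 and 0.57 for REN1. For the wild-type ratio they were -0.10 and 0.59 for RIC1 and -4.22 and 0.067 for RIC3. For the paps1-1 ratio they were -0.25 and 0.39 for ROPGEF9, -0.42 and 0.17 for ROPGEF11, and -1.64 and 0.12 for RIC3. For the difference of ratios they were -2.01 and 1.93 for ROPGEF8, -1.14 and 1.83 for ROPGEF12, and -0.60 and 3.68 for RIC3. Depth limits wild-type oligo(dT) replicate 3, where 3 counts stood for 42.9 CPM, against at most 5.28 CPM in each other library.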

Other observations

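The genes whose pattern over the 8 random-hexamer libraries was most like the mean of the 9 tested genes were found by the root-mean-square difference of centred log2 CPM, among 8656 genes with a median of 1.72. They were AT1G66245 (0.157), annotated as an uncharacterized protein, SVL5 (AT5G58170, 0.193), AT2G05160 (0.195), a CCCH zinc finger protein, AT3G56600 (0.209), a phosphatidylinositol 4-kinase gamma-like protein, and AT5G39880 (0.211), also uncharacterized. Their levels ranged from 129 to 370 CPM for AT3G56600 up to between 4348 and 10466 CPM for AT5G39880 in wild type. Against the same mean, of which each is a part, RBOHH had the smallest difference of the 9 (0.350) and RIC1 (2.08) and RIC3 (1.60), which were at 0 in wild-type replicate 3, the largest.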
